A study of Mus musculus with 9 samples.

Results

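The matrix metalloproteinases (Mmp), their tissue inhibitors (Timp), the Adamts proteinases and the Adamts-like (Adamtsl) proteins were followed across the layers of the fetal mouse intestine and in intestine treated with cyclopamine. The members were the genes whose symbols carry one of these 4 family names, and 51 of the 24016 RefSeq identifiers in the count table met this rule: 23 Mmp, 4 Timp, 19 Adamts and 5 Adamtsl genes. RNA sequencing had been run on 9 libraries from intestines of wild type C57BL/6 embryos at stage E14.5, in 3 groups of 3. The groups were whole intestine given the agent Cyclopamine (called treated intestine here), separated mesenchyme with no agent, and separated epithelium with no agent. Cyclopamine is a plant alkaloid that binds Smoothened and so blocks hedgehog signalling, through which the epithelium instructs the mesenchyme of the gut. The series' design states a transwell culture of 24 hours, and nothing in the labels says if the layers were cultured after separation. Untreated whole intestine was not analysed here, so in every comparison of treated intestine with a layer the drug, the makeup of the tissue and the culture cannot be told apart. The labels do not say whether a library is 1 embryo or a pool, so each p-value below reflects library-to-library spread, which may be in part technical.

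Mmps are zinc proteinases that cut collagens, laminins and other matrix and cell surface proteins, and most are made as inactive precursors. Timps bind their active sites, and Timp2 also takes part in the activation of Mmp2 by Mmp14 at the cell surface. Adamts proteinases carry thrombospondin repeats; some cut versican and other hyalectans, some remove the amino propeptide of fibrillar procollagens, and some act on fibrillin microfibrils, which Adamtsl proteins, having no catalytic domain, also bind. In the fetal gut these proteins remodel the matrix under the epithelium while villi and muscle layers form.

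Total counts ran from 9739394 to 26357115 per library. Mesenchyme 1 stood apart: the ribosomal precursor Rn45s took 59.06% of its counts, against 0.112% to 1.19% in the other libraries, and 3284702 counts were left in it without Rn45s, Lars2 and Mir6236, against 14122486 to 26302836. The 16 epithelial markers summed to 2130.3 to 2635 CPM in treated intestine, 193 to 237 CPM in mesenchyme and 6090 to 6473 CPM in epithelium, and the 15 fibroblast and mesenchyme markers to 4602 to 5041 CPM in treated intestine, 9761 to 13853 CPM in mesenchyme and 210.2 to 1071 CPM in epithelium, as the labels have it. CPM here means counts scaled to the library total after TMM scaling. Some mesenchymal transcript was present in epithelium: in epithelium 1, 2 and 3 the median fibroblast marker reached 8.42%, 2.52% and 1.26% of its mesenchyme level. All 6 hedgehog target genes of the marker list were lower in treated intestine than in mesenchyme, with a summed level of 148.1 to 179.7 CPM in treated intestine, against 990.8 to 1512 CPM in mesenchyme.

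The start regions of 4 members are shown because they show a difference in sequence within the families, between a run of neighbouring Mmp genes on chromosome 9 and the rest. In all, 10 members (Mmp13, Mmp12, Mmp1b, Mmp3, Mmp1a, Mmp10, Mmp8, Mmp27, Mmp20 and Mmp7, in map order) follow one another on that chromosome with no other protein-coding gene of the RefSeq table between them. The windows run from 250 bases before to 50 bases after the gene start in RefSeq annotation of GRCm38.p6, a later build than the authors' mm9, and 36 of the 51 members had one. All members without a window lie outside the run, among them Mmp2, Mmp9, Mmp16, Mmp19 and Adamts10. Counts over the other members do not cover these genes. Capitals mark the AP-1 motif TGANTCA and the TATA box TATAAA in Mmp13 (chr9:7272264-7272563, plus strand) and Mmp20 (chr9:7627981-7628280, plus strand), and the GC box GGGGCGGGG, read on either strand, in Mmp14 (chr14:54431348-54431647, plus strand) and Timp3 (chr10:86300162-86300461, plus strand).
Mmp13: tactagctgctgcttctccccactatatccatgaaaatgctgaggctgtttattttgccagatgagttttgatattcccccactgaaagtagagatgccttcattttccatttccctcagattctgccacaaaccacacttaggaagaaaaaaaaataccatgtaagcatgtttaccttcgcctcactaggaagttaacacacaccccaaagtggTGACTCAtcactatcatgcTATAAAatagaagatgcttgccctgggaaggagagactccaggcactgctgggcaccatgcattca
Mmp20: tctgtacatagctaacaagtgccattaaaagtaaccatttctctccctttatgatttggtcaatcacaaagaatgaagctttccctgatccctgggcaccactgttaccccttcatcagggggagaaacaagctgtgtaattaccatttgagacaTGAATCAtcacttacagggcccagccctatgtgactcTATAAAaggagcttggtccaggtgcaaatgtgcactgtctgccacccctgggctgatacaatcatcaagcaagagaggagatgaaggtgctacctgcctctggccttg
Mmp14: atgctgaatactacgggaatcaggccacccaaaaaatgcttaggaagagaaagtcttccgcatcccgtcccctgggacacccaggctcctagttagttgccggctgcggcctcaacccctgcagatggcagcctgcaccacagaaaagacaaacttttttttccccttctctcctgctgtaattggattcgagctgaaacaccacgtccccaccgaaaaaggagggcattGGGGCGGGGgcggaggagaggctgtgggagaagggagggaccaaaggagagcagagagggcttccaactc
Timp3: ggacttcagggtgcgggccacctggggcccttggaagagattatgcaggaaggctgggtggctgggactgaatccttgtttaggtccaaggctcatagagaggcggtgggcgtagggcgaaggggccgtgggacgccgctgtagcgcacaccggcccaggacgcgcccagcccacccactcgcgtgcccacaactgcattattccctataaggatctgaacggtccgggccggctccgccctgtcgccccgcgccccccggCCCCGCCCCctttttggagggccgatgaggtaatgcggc

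The AP-1 motif was found, on either strand, in 8 of the 10 windows of the chromosome 9 run and in 0 of the other 26 member windows, against 7.81% of all 32851 RefSeq windows. The TATA box, which does not overlap the AP-1 letters in the windows shown, was found in 9 of the 10 and in 3 of the other 26, against 13.6% of all windows. The GC box was the reverse, with 0 of 10 and 8 of 26, against 11.4%. The GLI motif GACCACCCA, the letters bound by the transcription factors of hedgehog signalling, was in 0 of the 36 windows and in 0.253% of all windows. The median GC content was 42.8% over the run and 66% over the other members, against 52.7% over all windows. Of the run, Mmp8 and Mmp27 lacked the AP-1 letters, and of the members higher in epithelium the windows of Adamtsl5 and Mmp28 held none of the 4 motifs. In Mmp13 the AP-1 letters begin 35 bases and the TATA box 16 bases before the annotated start, and in Mmp20 they begin 95 and 58 bases before it. A match is a description of the letters only, and motif counts were not tested against the expression values.

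The run was nearly silent in this tissue: only Mmp13 and Mmp20 of its 10 genes reached a mean of 1 CPM in any group. Over all families 40 of the 51 members reached that level, 28 of them at least 10 CPM. The 11 members below it were Adamts13, Mmp10, Mmp12, Mmp1a, Mmp1b, Mmp21, Mmp27, Mmp3, Mmp7, Mmp8 and Timp4, whose highest group mean was 0.830 CPM, and Mmp1a and Mmp1b had 0 counts in all 9 libraries. The lowest of the 40 described below had a highest group mean of 1.60 CPM. Mmp20 reached 1 CPM in treated intestine alone, and Mmp13 and Adamts14 in mesenchyme alone, so their level in that group is what admitted them. The filter on low counts passed 41 members, the 40 and Mmp10, and left 10 untested.

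**Figure D1:**
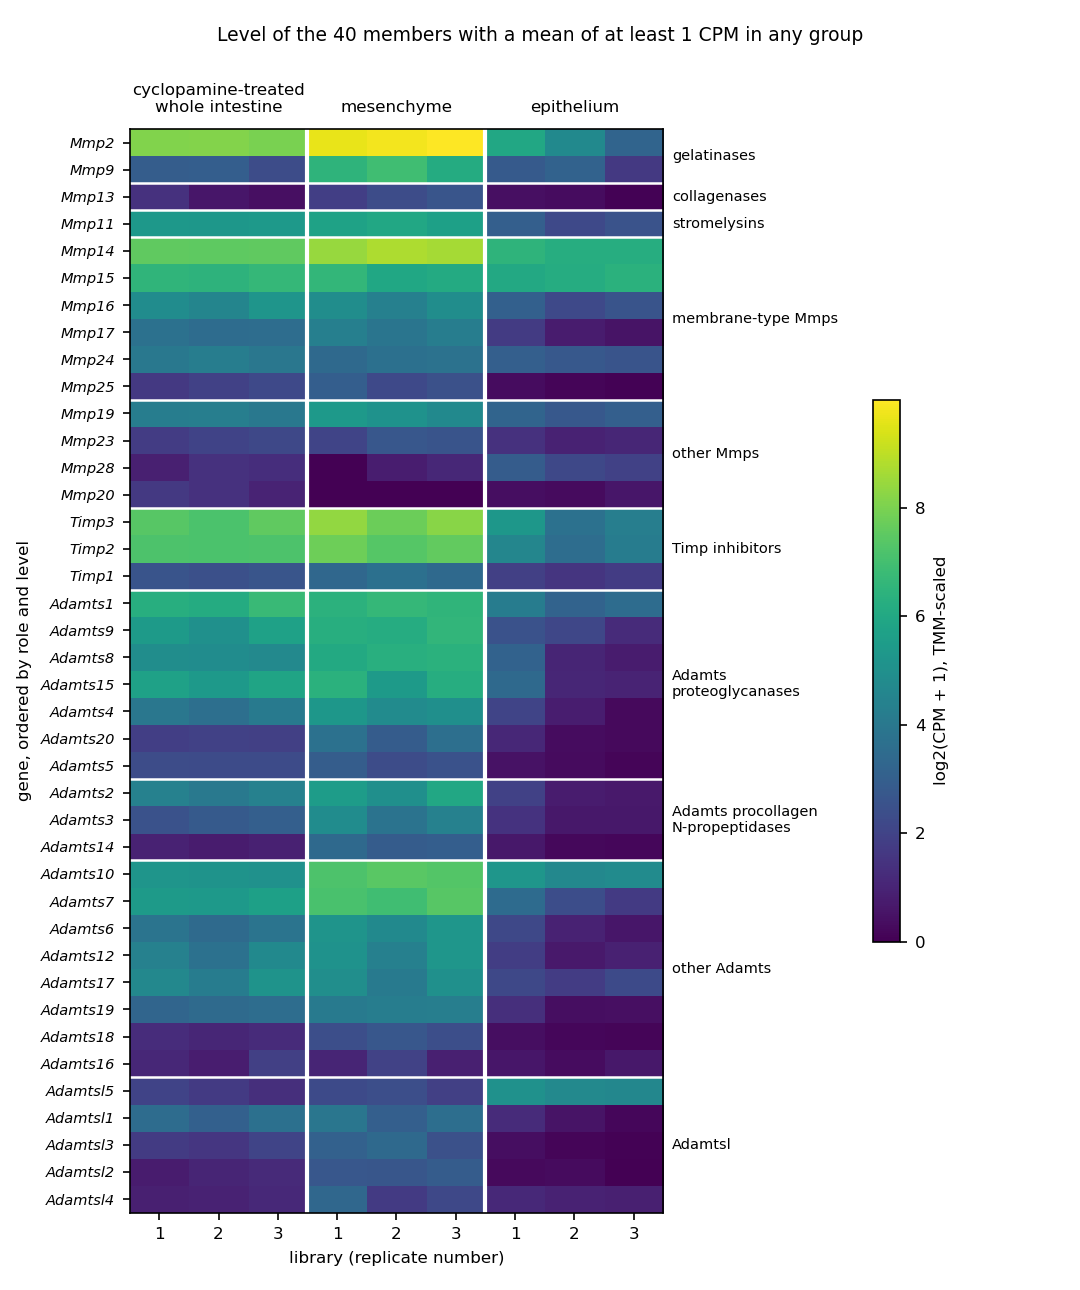
Level of the 40 members with a mean of at least 1 CPM in any group, 1 row per gene ordered by role and 1 column per library, with colour giving log2(CPM + 1). Most rows are brightest in the 3 mesenchyme columns and darkest in the epithelium columns, while Adamtsl5 and Mmp28 are brightest in epithelium and Mmp15 is even across all 9 libraries.

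The first comparison asked in which layer each gene is expressed. Mesenchyme was the main site: 37 of the 41 tested members were higher in mesenchyme than in epithelium by edgeR's quasi-likelihood test at an adjusted p under 0.05, against 35.1% of all 15699 genes tested. Adamtsl5, Mmp28 and Mmp20, 3 of the 41, were higher in epithelium, against 34.6% of all genes. The median log2 difference, mesenchyme over epithelium, was 4.05 over the tested members and -0.04 over all genes. The 3 and 3 values did not overlap for any of these 40 calls, against 35.3% of all genes in the direction of mesenchyme and 38.3% in that of epithelium. Mmp15 passed in neither direction. Epithelium 1 lowered many of these values: without it, the log2 difference over epithelium was larger by 0.65 to 1.99 for 19 members in mesenchyme and by 0.69 to 2.01 for the same 19 in treated intestine. They were Mmp2, Mmp17, Mmp25, Timp3, Adamts2, Adamts3, Adamts4, Adamts5, Adamts6, Adamts7, Adamts8, Adamts12, Adamts14, Adamts15, Adamts18, Adamts19, Adamts20, Adamtsl1 and Adamtsl3.

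The second comparison set treated intestine against mesenchyme. Of the 41 tested members 18 were lower in treated intestine, against 20.5% of all genes, and 1 was higher, Mmp20, against 20.8%. The median log2 difference was -0.94 over the tested members and -0.02 over all genes. The 18 were Mmp2, Mmp9, Mmp13, Mmp14, Mmp19, Timp1, Adamts2, Adamts3, Adamts6, Adamts7, Adamts9, Adamts10, Adamts14, Adamts18, Adamts20, Adamtsl2, Adamtsl3 and Adamtsl4. The 3 treated values lay below the 3 mesenchyme values for 27 members, against 26.8% of all genes, and above them for 2, against 28%. In bulk tissue, fewer cells of a type and less RNA per cell cannot be told apart, and treated intestine also holds epithelium. The count of 18 fell to 11 without treated intestine 1 and to 10 without treated intestine 2, and 10 of the 18 genes passed with every single library left out.

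Against epithelium, treated intestine was higher for 35 members, against 32.1% of all genes, and lower for 2, Adamtsl5 and Mmp28, against 29.8%. The median log2 difference was 2.85 over the tested members and -0.02 over all genes. The values did not overlap for 34 members in the direction of treated intestine, against 38.2% of all genes, and for 2 in that of epithelium, against 39.5%. Adamts10, Adamtsl4, Mmp9 and Mmp15 did not pass. The treated group shares its libraries between this comparison and the previous one, so the values of each are given side by side below and not as separate evidence.

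**Figure D2:**
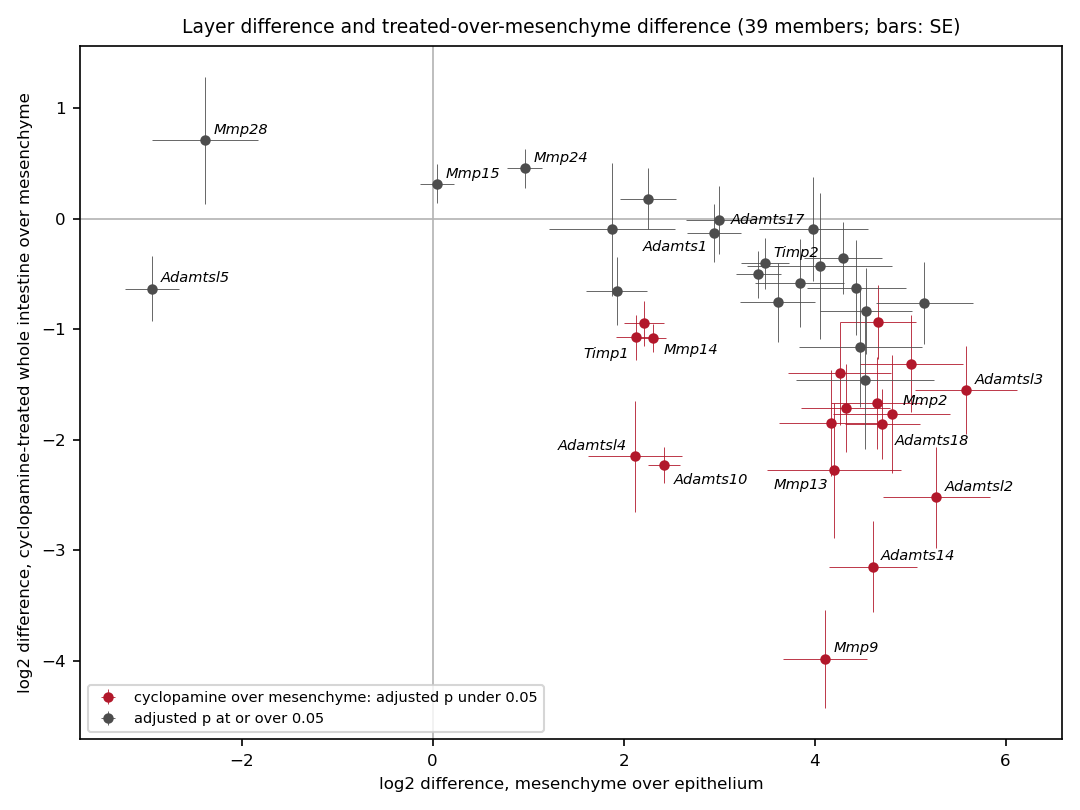
Log2 difference of mesenchyme over epithelium (horizontal axis) and of treated intestine over mesenchyme (vertical axis) for 39 members, with SE bars; red points had an adjusted p under 0.05 on the vertical axis, and Mmp20, with 0 counts in mesenchyme, is left out. Most points lie to the right of 0 and at or below 0, with Mmp9 lowest, but both axes use the same mesenchyme libraries, so the picture shows no independent relation between them.

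Among the gelatinases, which cut denatured collagen and the collagen of basement membranes, Mmp2 was abundant in mesenchyme. Mmp9 was the tested member furthest below mesenchyme in treated intestine. Mmp2 had 269.9, 278 and 251 CPM in treated intestine, 809, 889 and 1016 CPM in mesenchyme and 62.4, 25.9 and 8.40 CPM in epithelium. The 3 groups did not overlap, and epithelium 1, 2 and 3 ran in the order of their fibroblast marker levels. The log2 difference was 4.81 (SE 0.61, adjusted p = 7.75e-05) for mesenchyme over epithelium and -1.76 (SE 0.53, adjusted p = 0.0257) for treated intestine over mesenchyme. Without epithelium 1 the first was 5.79. The second call was lost without mesenchyme 3 (adjusted p = 0.0644) and without treated intestine 1, 2 or 3 (adjusted p = 0.0853, 0.0831 and 0.0888).

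Mmp9 had 6.80, 6.91 and 4.05 CPM in treated intestine, 88.7, 120.5 and 70.5 CPM in mesenchyme and 6.18, 7.81 and 2.15 CPM in epithelium. Treated intestine lay within the range of epithelium and far below mesenchyme. The log2 difference was -3.98 (SE 0.44, adjusted p = 0.00016) over mesenchyme and 0.13 (SE 0.42, adjusted p = 0.808) over epithelium, and 4.11 (SE 0.44, adjusted p = 2.68e-05) for mesenchyme over epithelium. Treated intestine thus held 6.35% of the mesenchyme level of Mmp9. Macrophages, endothelial cells and neutrophils are known sources of Mmp9, and the 14 macrophage markers summed to 241 to 253 CPM in treated intestine, against 237 to 427 CPM in mesenchyme, with 3 lower, 1 higher and none at 0 counts in either group. The 14 endothelial markers summed to 453 to 594 CPM in treated intestine, against 815 to 1009 CPM in mesenchyme, with 4 lower, 0 higher and none at 0 counts, and the lowest single marker stood at 17.0% of its mesenchyme level. The 9 neutrophil markers summed to 2.44 to 3.27 CPM in treated intestine, against 0.530 to 3.13 CPM in mesenchyme, with 1 at 0 counts in each group. The part of these cells in the Mmp9 result was not tested.

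The membrane-type Mmps, which are anchored at the cell surface, were 6 genes, of which 5 were higher in mesenchyme than in epithelium and 1, Mmp14, was lower in treated intestine than in mesenchyme. The same shares over all genes tested were 35.1% and 20.5%. Mmp14, a collagenase that also activates Mmp2, had 187, 182 and 185 CPM in treated intestine, 344, 428 and 398 CPM in mesenchyme and 89.4, 73.7 and 73.2 CPM in epithelium. The 3 groups did not overlap, and the treated values spread by less than those of either layer. The log2 difference was -1.08 (SE 0.13, adjusted p = 0.000224) over mesenchyme and 1.23 (SE 0.13, adjusted p = 3.97e-05) over epithelium. In epithelium 1, 2 and 3 Mmp14 stood at 22.9%, 18.9% and 18.8% of its mesenchyme level, above every fibroblast marker in the same libraries, the highest of which stood at 12.7%, 8.76% and 9.48%.

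Mmp15, the closest relative of Mmp14, had 91.3, 87.5 and 100.4 CPM in treated intestine, 96.7, 60.9 and 68.5 CPM in mesenchyme and 63.5, 72.2 and 81.4 CPM in epithelium. Mesenchyme overlapped both other groups, and the treated values lay above those of epithelium. No pair of groups passed the test: the log2 difference was 0.05 (SE 0.18, adjusted p = 0.820) for mesenchyme over epithelium, 0.32 (SE 0.18, adjusted p = 0.178) for treated intestine over mesenchyme and 0.36 (SE 0.17, adjusted p = 0.0974) for treated intestine over epithelium. Without mesenchyme 1, treated intestine was higher than mesenchyme (log2 0.55, adjusted p = 0.00437) and than epithelium (log2 0.39, adjusted p = 0.00677). Mmp16, which can also activate Mmp2, had 28.3, 22.3 and 36.1 CPM in treated intestine, 28.9, 19.5 and 28.7 CPM in mesenchyme and 7.32, 3.62 and 5.01 CPM in epithelium. Treated intestine and mesenchyme overlapped for Mmp16, with a log2 difference of 0.18 (SE 0.28, adjusted p = 0.626), and both lay above epithelium. Mmp24, known for cutting N-cadherin in neurons, had 14.98, 17.9 and 14.7 CPM in treated intestine, 9.80, 11.7 and 12.6 CPM in mesenchyme and 7.04, 5.71 and 4.96 CPM in epithelium. All 3 treated values of Mmp24 were above all 3 mesenchyme values, but the log2 difference of 0.45 (SE 0.18, adjusted p = 0.0665) did not pass; it passed without epithelium 1 (adjusted p = 0.0371) and without epithelium 3 (adjusted p = 0.0468).

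The remaining membrane-type genes carry a lipid anchor. Mmp17 had 12.2, 10.6 and 10.8 CPM in treated intestine, 18.8, 13.9 and 17.9 CPM in mesenchyme and 2.29, 0.698 and 0.429 CPM in epithelium. Its treated values lay below those of mesenchyme without passing the test, at a log2 difference of -0.58 (SE 0.40, adjusted p = 0.269), except without epithelium 1 (adjusted p = 0.0447). Mmp25 averaged 2.85 ± 0.707 CPM in treated intestine, 5.06 ± 1.66 CPM in mesenchyme and 0.127 ± 0.105 CPM in epithelium (SD, n = 3), and its difference from mesenchyme did not pass either (log2 -0.76, adjusted p = 0.129).

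Of the secreted Mmps outside the gelatinases, Mmp11 and Mmp19 had the highest counts. Mmp11, a stromelysin secreted in active form, had 39.4, 38.2 and 39.97 CPM in treated intestine, 53.2, 63.4 and 50.1 CPM in mesenchyme and 7.12, 3.62 and 4.92 CPM in epithelium. The treated values lay below mesenchyme, but the log2 difference of -0.51 (SE 0.21, adjusted p = 0.0798) did not pass, except without epithelium 1 (adjusted p = 0.0299). Mmp19, which cuts basement membrane proteins, had 17.8, 18.5 and 14.9 CPM in treated intestine, 41.05, 33.3 and 25.6 CPM in mesenchyme and 8.27, 5.80 and 7.21 CPM in epithelium. Its 3 groups did not overlap, and it was lower in treated intestine at a log2 difference of -0.95 (SE 0.20, adjusted p = 0.00535). Mmp13, the main interstitial collagenase of rodents, averaged 0.848 ± 0.744 CPM in treated intestine, 3.96 ± 1.29 CPM in mesenchyme and 0.212 ± 0.146 CPM in epithelium (SD, n = 3). Its difference from mesenchyme was -2.28 (SE 0.61, adjusted p = 0.0157), and the call was lost without mesenchyme 3 (adjusted p = 0.0564), treated intestine 2 (0.0721) or treated intestine 3 (0.0574). Without treated intestine 1 the difference was -3.23. Its call over epithelium (log2 1.93, adjusted p = 0.0440) was lost without treated intestine 1 (log2 1.01, adjusted p = 0.238), mesenchyme 2 (0.0569), mesenchyme 3 (0.0576), epithelium 2 (0.0760) or epithelium 3 (0.103). Mmp23, a small member without the hemopexin domain, averaged 3.02 ± 0.551 CPM in treated intestine, 4.59 ± 1.24 CPM in mesenchyme and 1.24 ± 0.421 CPM in epithelium, and did not pass between treated intestine and mesenchyme (adjusted p = 0.113).

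Mmp28 and Mmp20 broke the pattern. Mmp28, or epilysin, known from epithelia, averaged 1.34 ± 0.433 CPM in treated intestine, 0.633 ± 0.583 CPM in mesenchyme and 4.27 ± 2.04 CPM in epithelium (SD, n = 3). The log2 difference was -2.38 (SE 0.56, adjusted p = 0.00363) for mesenchyme over epithelium and -1.68 (SE 0.52, adjusted p = 0.0178) for treated intestine over epithelium. The second call was lost without epithelium 1 (adjusted p = 0.114), treated intestine 1 (0.0996) or treated intestine 3 (0.0654). Mmp20, or enamelysin, known for its part in tooth enamel, had 2.12, 1.68 and 1.01 CPM in treated intestine, 0, 0 and 0 CPM in mesenchyme and 0.286, 0.218 and 0.525 CPM in epithelium, from 40, 29 and 22 counts in treated intestine, 0 counts in all 3 mesenchyme libraries and 7, 5 and 11 counts in epithelium. Set against a floor of 3 counts over the mesenchyme group, treated intestine was at least 29.0-fold higher and epithelium at least 6.19-fold higher than mesenchyme. Mmp20 reached a mean of 1 CPM in treated intestine alone, so it was described only through the group where it was high. Its fold and its calls in that group describe a gene admitted by its level there. Over epithelium the log2 difference of treated intestine was 2.22 (SE 0.48, adjusted p = 0.00481). Mmp20 was the single member above both layers at an adjusted p of 0.0437, against 1.24% of all genes, and the members below both layers numbered 0, against 3.83% of all genes.

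The Mmp20 call above both layers was lost in 7 of the 9 fits that left out 1 library, with adjusted p from 0.0545 without mesenchyme 3 to 0.169 without treated intestine 1, and it rests on few counts. Those 7 left out epithelium 1 (0.132), epithelium 2 (0.139), epithelium 3 (0.0601), mesenchyme 3, treated intestine 1, treated intestine 2 (0.141) or treated intestine 3 (0.0814).

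**Figure D3:**
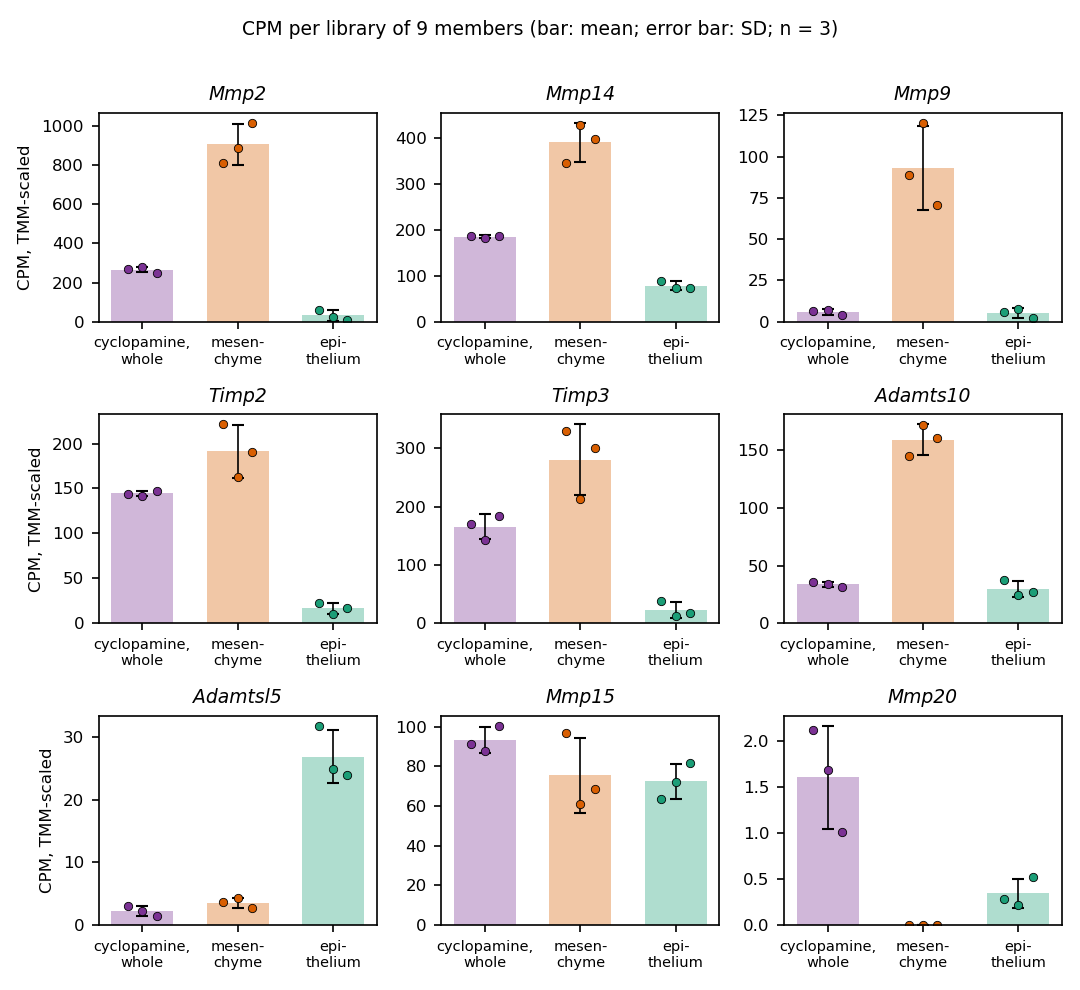
CPM of 9 members in the 3 treated intestine, 3 mesenchyme and 3 epithelium libraries, each panel on its own axis from 0, with points for libraries, bars for the mean and error bars for the SD (n = 3). Mmp9 and Adamts10 in treated intestine sit at the level of epithelium, and Timp2 and Timp3 there lie nearer to mesenchyme. Adamtsl5 is high in epithelium and Mmp20 has 0 counts in mesenchyme.

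Of the 3 expressed inhibitors, Timp2 stood at 75.5%, Timp3 at 59.1% and Timp1 at 47.9% of the mesenchyme level in treated intestine. Timp3, which is held in the matrix and also inhibits Adamts proteinases, had 169, 143 and 184 CPM in treated intestine, 329, 212 and 299.7 CPM in mesenchyme and 38.3, 12.2 and 18.1 CPM in epithelium. Treated values lay below mesenchyme, but the log2 difference of -0.76 (SE 0.36, adjusted p = 0.115) did not pass, except without epithelium 1 (adjusted p = 0.0207). Timp2 had 144, 142 and 147 CPM in treated intestine, 221, 163 and 190.01 CPM in mesenchyme and 23.1, 10.9 and 17.3 CPM in epithelium. Its treated values also lay below mesenchyme, at a log2 difference of -0.40 (SE 0.23, adjusted p = 0.187), which did not pass and was 0.11 with no scaling beyond the library total. Timp1, a weak inhibitor of membrane-type Mmps, had 4.99, 4.36 and 5.29 CPM in treated intestine, 9.004, 11.9 and 9.67 CPM in mesenchyme and 2.70, 1.92 and 2.43 CPM in epithelium. Timp1 was the inhibitor that was lower in treated intestine by the test, at a log2 difference of -1.07 (SE 0.20, adjusted p = 0.00273). All 3 were higher in mesenchyme than in epithelium, with log2 differences of 3.61 for Timp3, 3.48 for Timp2 and 2.13 for Timp1.

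The balance of proteinase to inhibitor transcripts differed between groups. The ratio of Mmp2 to Timp2 CPM, in which the gene lengths are the same in every library, was 1.87, 1.96 and 1.70 in treated intestine, 3.65, 5.46 and 5.34 in mesenchyme and 2.70, 2.38 and 0.486 in epithelium. The treated ratios were below all 3 mesenchyme ratios and inside the range of epithelium. The ratio of Mmp14 to Timp2 was 1.30, 1.28 and 1.26 in treated intestine, 1.55, 2.63 and 2.09 in mesenchyme and 3.87, 6.76 and 4.23 in epithelium, with no overlap of the groups. The summed CPM of all Mmp genes over that of all Timp genes was 2.13, 2.32 and 1.98 in treated intestine, 2.69, 4.28 and 3.41 in mesenchyme and 4.11, 8.15 and 5.10 in epithelium. Its treated values lay below both layers, while mesenchyme 2 lay above epithelium 1. Gene lengths do not cancel in these sums, since the genes that make them up differed by group. Mmp2 was 55.8% of the Mmp sum in mesenchyme and 14.6% in epithelium, and Mmp15 was 4.65% and 32.9%. No test was run on these ratios, which describe transcripts and not active protein.

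Per kilobase of transcript, the scale on which genes can be set beside each other, Mmp2 led in treated intestine at 86.5 CPM per kb, followed by Mmp14 at 71.2, Timp2 at 38.96 and Timp3 at 35.1 CPM per kb. Mmp2 also led in mesenchyme at 294 CPM per kb, followed by Mmp14 at 150.2, Timp3 at 59.4 and Timp2 at 51.6 CPM per kb. In epithelium Mmp14 led at 30.3 CPM per kb, followed by Mmp15 at 14.1, Mmp2 at 10.5 and Adamtsl5 at 7.64 CPM per kb. Lengths came from the annotated transcript of the same RefSeq accession and were found for 50 of the 51 members.

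The Adamts proteoglycanases, which cut versican and aggrecan, were all higher in mesenchyme than in epithelium, 7 of 7, and 2 of the 7 were lower in treated intestine than in mesenchyme. Over all genes tested these shares were 35.1% and 20.5%. Adamts1 had 76.5, 69.7 and 107 CPM in treated intestine, 85.5, 98.98 and 92.4 CPM in mesenchyme and 17.4, 8.07 and 10.5 CPM in epithelium. Treated intestine and mesenchyme overlapped, at a log2 difference of -0.13 (SE 0.26, adjusted p = 0.720). Adamts9 had 42.8, 31.7 and 51.6 CPM in treated intestine, 75.2, 72.6 and 93.3 CPM in mesenchyme and 4.75, 3.36 and 1.34 CPM in epithelium. It was lower in treated intestine at a log2 difference of -0.94 (SE 0.34, adjusted p = 0.0495), the weakest of the 18 calls. That call was lost without treated intestine 1, 2 or 3 (adjusted p = 0.135, 0.184 and 0.0734), mesenchyme 1, 2 or 3 (0.0637, 0.0605 and 0.139) or epithelium 2 (0.0804). Adamts20, a close relative of Adamts9, had 2.66, 2.85 and 2.76 CPM in treated intestine, 12.2, 6.48 and 11.6 CPM in mesenchyme and 1.15, 0.262 and 0.191 CPM in epithelium. It was lower at a log2 difference of -1.85 (SE 0.48, adjusted p = 0.0131), and this call was lost without treated intestine 1, 2 or 3 (adjusted p = 0.0614, 0.0550 and 0.0550).

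The other 4 proteoglycanases did not pass between treated intestine and mesenchyme. Adamts8 had 28.6, 27.9 and 25.1 CPM in treated intestine, 65.4, 77.3 and 81.5 CPM in mesenchyme and 7.86, 1.05 and 0.716 CPM in epithelium. Adamts15, its neighbour on chromosome 9, had 51.5, 39.7 and 55.7 CPM in treated intestine, 81.6, 42.5 and 74.6 CPM in mesenchyme and 9.66, 1.09 and 1.002 CPM in epithelium. The Adamts8 values did not overlap between treated intestine and mesenchyme, at a log2 difference of -1.46 (SE 0.62, adjusted p = 0.0866) that passed without epithelium 1 (adjusted p = 0.000155). Those of Adamts15 overlapped, at a log2 difference of -0.43 (SE 0.66, adjusted p = 0.630). Adamts4, an aggrecanase, had 14.4, 11.6 and 16.2 CPM in treated intestine, 38.4, 26.9 and 30.1 CPM in mesenchyme and 3.19, 0.741 and 0.191 CPM in epithelium. Its treated values lay below mesenchyme, at a log2 difference of -1.16 (SE 0.54, adjusted p = 0.115), which passed without epithelium 1 (adjusted p = 0.0101) or epithelium 3 (0.0452). Adamts5, the other main aggrecanase of cartilage, averaged 3.88 ± 0.0920 CPM in treated intestine, 5.14 ± 1.33 CPM in mesenchyme and 0.241 ± 0.158 CPM in epithelium (SD, n = 3), with a log2 difference of -0.36 (SE 0.32, adjusted p = 0.404).

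The procollagen N-propeptidases, which trim fibrillar procollagens so that they can form fibrils, were all lower in treated intestine than in mesenchyme, 3 of 3, as both gelatinases were. Over all genes tested 20.5% were lower. Adamts2 had 19.9, 15.6 and 20.1 CPM in treated intestine, 44.8, 30.4 and 62.6 CPM in mesenchyme and 2.86, 0.698 and 0.620 CPM in epithelium. Adamts3, also known for activating Vegfc, had 4.73, 6.16 and 7.13 CPM in treated intestine, 27.8, 13.1 and 19.8 CPM in mesenchyme and 1.76, 0.567 and 0.573 CPM in epithelium. Treated values lay below mesenchyme for both, at log2 differences of -1.31 (SE 0.44, adjusted p = 0.0394) for Adamts2 and -1.72 (SE 0.40, adjusted p = 0.00805) for Adamts3. Adamts14 averaged 0.842 ± 0.133 CPM in treated intestine, 7.71 ± 1.81 CPM in mesenchyme and 0.297 ± 0.240 CPM in epithelium (SD, n = 3). Of the tested members it was second furthest below mesenchyme in treated intestine, at a log2 difference of -3.15 (SE 0.42, adjusted p = 0.000418). Its treated level was 10.9% of its mesenchyme level. The Adamts2 call was lost without treated intestine 1, 2 or 3 (adjusted p = 0.107, 0.139 and 0.101), mesenchyme 1 (0.0571) or mesenchyme 3 (0.147). The Adamts14 call over epithelium (log2 1.46, adjusted p = 0.0247) was lost without treated intestine 1 (0.0680), treated intestine 3 (0.0589), epithelium 2 (0.0809) or epithelium 3 (0.0716).

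Among the other Adamts genes Adamts10, which acts on fibrillin microfibrils and is mutated in Weill-Marchesani syndrome in humans, stood out. Adamts10 had 36.1, 33.7 and 31.8 CPM in treated intestine, 145, 171 and 160.4 CPM in mesenchyme and 37.3, 24.6 and 27.2 CPM in epithelium. Treated intestine lay within the range of epithelium and below mesenchyme, at a log2 difference of -2.23 (SE 0.17, adjusted p = 1.72e-05) over mesenchyme and 0.19 (SE 0.16, adjusted p = 0.330) over epithelium. Without epithelium 1 the difference from epithelium passed (log2 0.49, adjusted p = 0.0117). Adamts6, the closest relative of Adamts10, had 13.5, 9.81 and 13.4 CPM in treated intestine, 35.5, 25.4 and 36.6 CPM in mesenchyme and 3.48, 0.959 and 0.525 CPM in epithelium. It was lower in treated intestine at a log2 difference of -1.40 (SE 0.47, adjusted p = 0.0370), a call lost without treated intestine 1, 2 or 3 (adjusted p = 0.101, 0.138 and 0.0977), mesenchyme 1 (0.0668) or mesenchyme 3 (0.101). Unlike Adamts10, Adamts6 in treated intestine lay above epithelium, with no overlap, at a log2 difference of 2.86 (SE 0.52, adjusted p = 0.00106).

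Adamts7 and Adamts12, which cut cartilage oligomeric matrix protein, gave different values. Adamts7 had 42.4, 40.8 and 50.6 CPM in treated intestine, 139, 119.7 and 167 CPM in mesenchyme and 10.4, 4.19 and 2.24 CPM in epithelium. It was lower in treated intestine at a log2 difference of -1.67 (SE 0.41, adjusted p = 0.0108), a call lost without treated intestine 1 (adjusted p = 0.0515) or treated intestine 2 (0.0542). Adamts12 had 19.8, 12.3 and 25.8 CPM in treated intestine, 32.8, 19.4 and 37.5 CPM in mesenchyme and 2.54, 0.611 and 0.907 CPM in epithelium. Treated intestine and mesenchyme overlapped for Adamts12, at a log2 difference of -0.62 (SE 0.43, adjusted p = 0.271). Whether the values of these genes differ from each other was not tested.

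Adamts17 and Adamts19 are relatives of each other, and Adamts17 is also mutated in Weill-Marchesani-like syndrome in humans. Adamts17 had 24.01, 17.1 and 34.5 CPM in treated intestine, 29.4, 16.5 and 30.9 CPM in mesenchyme and 3.44, 2.44 and 3.67 CPM in epithelium. Treated intestine and mesenchyme overlapped, at a log2 difference of -0.01 (SE 0.31, adjusted p = 0.983). Adamts19 had 8.50, 9.99 and 10.9 CPM in treated intestine, 16.2, 17.6 and 18.4 CPM in mesenchyme and 1.55, 0.305 and 0.334 CPM in epithelium. Its treated values lay below mesenchyme but did not pass, at a log2 difference of -0.83 (SE 0.39, adjusted p = 0.114), except without epithelium 1 (adjusted p = 0.00339). Adamts18 averaged 1.29 ± 0.170 CPM in treated intestine, 4.67 ± 0.769 CPM in mesenchyme and 0.171 ± 0.102 CPM in epithelium (SD, n = 3) and was lower in treated intestine at a log2 difference of -1.86 (SE 0.32, adjusted p = 0.00175). Adamts16, its relative, averaged 1.56 ± 1.06 CPM in treated intestine, 1.60 ± 1.14 CPM in mesenchyme and 0.455 ± 0.169 CPM in epithelium, with a wide spread in treated intestine and in mesenchyme. Its call in mesenchyme over epithelium (log2 1.88, adjusted p = 0.0274) was lost without mesenchyme 2 (log2 0.97, adjusted p = 0.224) or epithelium 2 (0.0834). Its call in treated intestine over epithelium (log2 1.78, adjusted p = 0.0357) was lost without treated intestine 3 (log2 1.17, adjusted p = 0.159) or epithelium 1, 2 or 3 (0.0542, 0.101 and 0.0555).

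The Adamtsl proteins included the clearest epithelial member. Adamtsl5, which binds fibrillin microfibrils, had 3.08, 2.21 and 1.52 CPM in treated intestine, 3.71, 4.28 and 2.68 CPM in mesenchyme and 31.8, 24.9 and 23.96 CPM in epithelium. All 3 epithelium values lay above every other library, at a log2 difference of -2.94 (SE 0.28, adjusted p = 1.31e-05) for mesenchyme over epithelium. Treated intestine was lower than epithelium, at a log2 difference of -3.57 (SE 0.28, adjusted p = 1.17e-05), and its values overlapped those of mesenchyme, at -0.63 (SE 0.29, adjusted p = 0.111). The 16 epithelial markers were also lower in treated intestine than in epithelium, 16 of 16, with a median log2 difference of -1.50, and the part of the epithelial share of the tissue in the Adamtsl5 difference was not tested.

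The other Adamtsl genes were higher in mesenchyme than in epithelium by the present test. Adamtsl1 had 10.5, 7.32 and 11.9 CPM in treated intestine, 14.3, 7.10 and 11.2 CPM in mesenchyme and 1.35, 0.436 and 0.143 CPM in epithelium. Treated intestine and mesenchyme overlapped, at a log2 difference of -0.09 (SE 0.47, adjusted p = 0.895). Adamtsl2, mutated in geleophysic dysplasia in humans, averaged 1.01 ± 0.300 CPM in treated intestine, 5.82 ± 0.570 CPM in mesenchyme and 0.141 ± 0.122 CPM in epithelium (SD, n = 3) and was lower in treated intestine at a log2 difference of -2.52 (SE 0.45, adjusted p = 0.00224). Adamtsl3 averaged 2.46 ± 0.565 CPM in treated intestine, 7.30 ± 2.61 CPM in mesenchyme and 0.140 ± 0.128 CPM in epithelium, with a log2 difference of -1.55 (SE 0.40, adjusted p = 0.0132) that was lost without treated intestine 1 (adjusted p = 0.0630), treated intestine 2 (0.0668) or mesenchyme 2 (0.0532). Adamtsl4, which binds fibrillin and is mutated in displaced lens in humans, averaged 0.992 ± 0.181 CPM in treated intestine, 4.90 ± 3.60 CPM in mesenchyme and 1.02 ± 0.191 CPM in epithelium. It was lower in treated intestine than in mesenchyme, at a log2 difference of -2.15 (SE 0.50, adjusted p = 0.00785). Its mesenchyme values were 9.004, 2.25 and 3.45 CPM. Without the shallow mesenchyme 1 the log2 difference was -1.48 for treated intestine over mesenchyme, and 1.47 in place of 2.12 for mesenchyme over epithelium. Over epithelium the log2 difference of -0.03 (SE 0.50, adjusted p = 0.961) did not pass.

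Set against the mesenchyme level, the members spread widely in treated intestine. Over the 37 members higher in mesenchyme, treated intestine stood at a median of 51.3% of the mesenchyme mean, from 6.35% for Mmp9 to 139% for Mmp24. The same median was 70.6% over all 5503 genes higher in mesenchyme. It was 54.3% over the 15 fibroblast and mesenchyme markers, 56.5% over 14 endothelial markers, 76.4% over 10 smooth muscle markers, 78.1% over 14 macrophage markers and 92.0% over 12 enteric neural markers. For other markers the medians were 166% over 9 neutrophil, 183% over 10 erythroid, 199% over 7 mesothelium and 1071% over 16 epithelial markers. Only 3 neutrophil markers could be tested, with 0 higher and 0 lower. The summed CPM of the 9 neutrophil markers overlapped between treated intestine and mesenchyme. Of the tested markers, 5 of 8 erythroid, 3 of 7 mesothelium and 16 of 16 epithelial were higher, and 1 erythroid was lower. Krt19, a mesothelium marker that was higher, is also among the epithelial markers. Mmp9 at 6.35%, Adamts14 at 10.9% and Adamtsl2 at 17.3% were the 3 members under 20%, and 2 of them, Mmp9 and Adamts14, lay under the lowest fibroblast marker at 13.9%. Of the 37, 18 were lower in treated intestine by the test, against 35.6% of all genes higher in mesenchyme. Treated intestine also differed from mesenchyme in its makeup, and the part of makeup in these values was not tested.

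**Figure D4:**
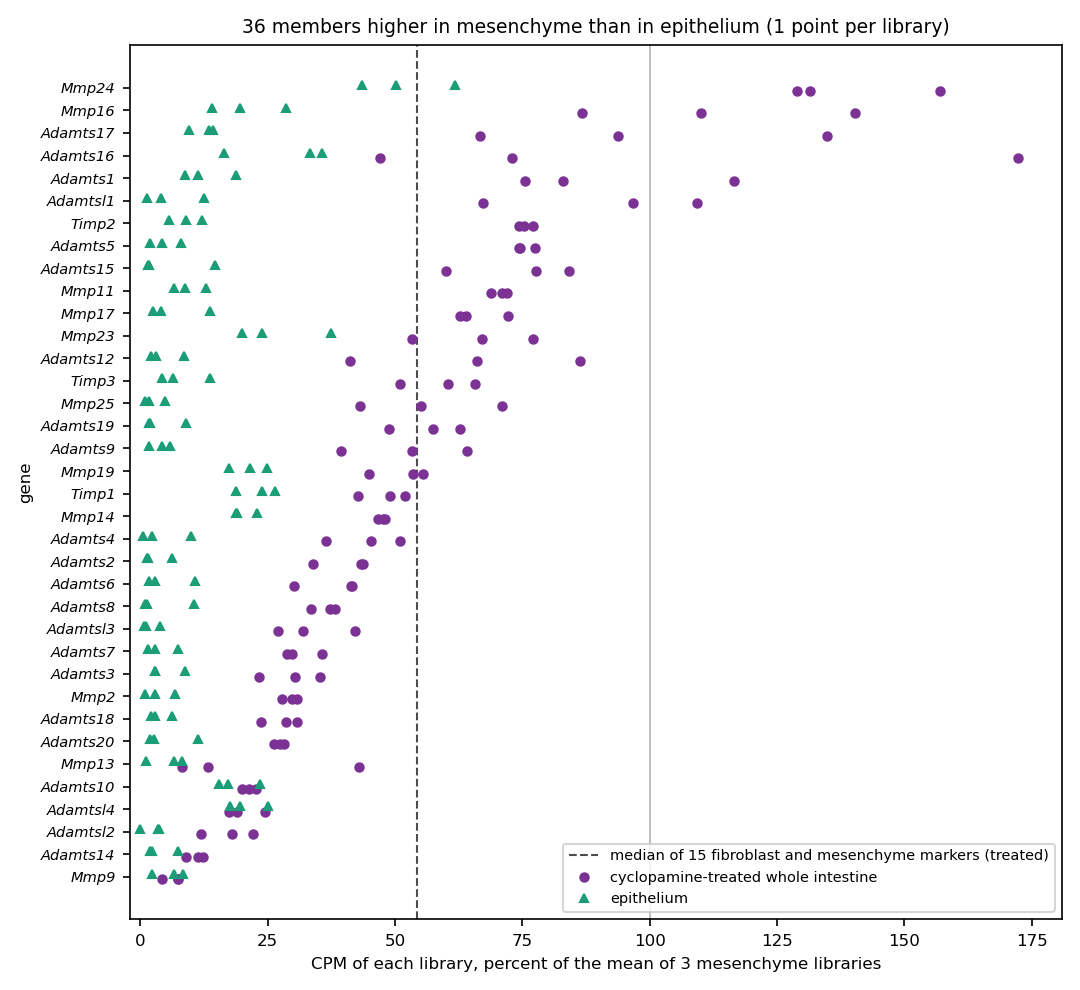
CPM of each treated intestine library (circles) and each epithelium library (triangles) as a percent of the mesenchyme mean, for the 36 members of at least 1 CPM that were higher in mesenchyme, in order of the treated mean. Treated intestine runs from 6.35% for Mmp9 to 139% for Mmp24 around the dashed line at 54.3%, the median of the fibroblast and mesenchyme markers.

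Of the members higher in mesenchyme, most were highest in epithelium 1 among the epithelium libraries. The 37 members stood at a median of 10.7%, 4.14% and 2.30% of the mesenchyme level in epithelium 1, 2 and 3, beside 8.42%, 2.52% and 1.26% for the fibroblast markers and 21.5%, 16.1% and 18.0% for all genes higher in mesenchyme. The medians of members and markers ran in 1 order, but 15 of the 37 members had a higher level in epithelium 3 than in epithelium 2. For that count no share over all genes was computed. Epithelium 1 was the highest of its group for 32 of the 37, against 58.1% of all genes higher in mesenchyme. For 11 of the 37 the share in epithelium 3 was above that of the highest fibroblast marker, Vim at 9.48%, against 61.1% of all genes higher in mesenchyme. They were Mmp24 at 43.6%, Adamts16 at 35.8%, Mmp23 at 23.9%, Timp1 at 23.9%, Mmp19 at 21.6%, Mmp16 at 19.5%, Mmp14 at 18.8%, Adamtsl4 at 17.5%, Adamts10 at 17.2%, Adamts17 at 14.3% and Adamts1 at 11.4%. Whether epithelial cells or other cells gave these transcripts was not tested.

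Genes that work with the members were taken from lists of the same pathways. Unlike the calls of members, those of single list genes were not checked with each library left out, so their stability is not known. Over all genes tested, 35.1% were higher and 34.6% lower in mesenchyme than in epithelium. In treated intestine over mesenchyme the shares were 20.8% higher and 20.5% lower, and these apply to every list below. Of 6 tested plasminogen system genes, 4 were higher and 1 lower in mesenchyme than in epithelium, and 3 were lower and 1 higher in treated intestine than in mesenchyme. Plau, the urokinase that makes plasmin, had 24.2 ± 2.63 CPM in treated intestine, against 63.2 ± 8.27 CPM in mesenchyme (SD, n = 3; log2 -1.39, adjusted p = 0.0379). Its receptor Plaur had 7.55 ± 1.11 CPM in treated intestine, against 22.4 ± 7.06 CPM in mesenchyme (log2 -1.59, adjusted p = 0.00106). Plaur averaged 18.8 ± 3.76 CPM in epithelium, and its treated level lay below both layers (adjusted p = 0.0164). Serpinf2, the inhibitor of plasmin, was the gene that was higher, at 6.35 ± 0.904 CPM in treated intestine, against 0.463 ± 0.0591 CPM in mesenchyme (log2 3.84, adjusted p = 6.97e-06), and averaged 13.4 ± 1.44 CPM in epithelium.

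Of 13 tested activators, inhibitors and clearance factors of the members, 10 were higher and 2 lower in mesenchyme than in epithelium, and 4 were lower and 1 higher in treated intestine than in mesenchyme. Beside the last 2 counts stand 20.5% lower and 20.8% higher over all genes. Lrp1, the receptor that clears Mmps, Timps and Adamts proteinases from the matrix, had 245 ± 53.7 CPM in treated intestine, against 1305 ± 549 CPM in mesenchyme (log2 -2.41, adjusted p = 0.000394). Pcsk6, a convertase that can activate Adamts precursors, had 13.1 ± 3.27 CPM in treated intestine, against 33.6 ± 5.66 CPM in mesenchyme (log2 -1.37, adjusted p = 0.00127). The related convertase Pcsk5 was higher, at 37.4 ± 3.26 CPM in treated intestine, against 6.57 ± 1.76 CPM in mesenchyme (log2 2.55, adjusted p = 2.67e-05), and stood at 115 ± 12.2 CPM in epithelium.

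Related proteinases of the Adam and astacin families were also read. Of 12 tested Adam genes 9 were higher and 1 lower in mesenchyme than in epithelium, and 3 were lower and 0 higher in treated intestine than in mesenchyme, with log2 differences of -2.03 for Adam33, -1.84 for Adam8 and -1.03 for Adam15. The background for such counts over all genes was 20.5% lower and 20.8% higher, so the Adam count of lower genes lay near it. In treated intestine Adam8 and Adam15 also lay below both layers (adjusted p = 0.0471 and 0.00619), as 3.83% of all genes did. Of 5 tested astacin and procollagen processing genes, 3 were higher and 2 lower in mesenchyme than in epithelium, and 3 were lower and 2 higher in treated intestine than in mesenchyme. Bmp1, the procollagen C-proteinase, had 99.98 ± 2.95 CPM in treated intestine, against 320.1 ± 19.3 CPM in mesenchyme (log2 -1.68, adjusted p = 0.000151). The meprins Mep1a and Mep1b, brush border enzymes, were the 2 that were higher, at log2 differences of 4.42 and 2.98.

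The substrates of the members were mesenchymal as well. For the counts below, 35.1% of all genes were higher in mesenchyme than in epithelium and 20.5% lower in treated intestine than in mesenchyme. Of 9 fibrillar procollagen genes, substrates of the N-propeptidases, 8 were higher and 1, Col11a2, lower in mesenchyme than in epithelium, and 5 were lower in treated intestine than in mesenchyme, among them Col1a1 at 593 ± 79.4 CPM in treated intestine, against 2238 ± 490.1 CPM in mesenchyme (log2 -1.92, adjusted p = 0.0202). Of 14 tested fibrillin microfibril and elastic fibre genes, 14 were higher in mesenchyme and 6 were lower in treated intestine, led by Fbn2 at 155 ± 24.5 CPM in treated intestine, against 532 ± 141 CPM in mesenchyme (log2 -1.78, adjusted p = 0.0299). Of 5 tested hyalectan and link protein genes, 4 were higher in mesenchyme, and in treated intestine 2 were lower and 1 higher than in mesenchyme. Versican, Vcan, the main substrate of the proteoglycanases in embryos, had 265 ± 59.1 CPM in treated intestine, against 740.3 ± 165 CPM in mesenchyme (log2 -1.48, adjusted p = 0.00322), while the link protein gene Hapln1 was higher, at 12.3 ± 1.23 CPM in treated intestine, against 4.45 ± 1.85 CPM in mesenchyme (log2 1.36, adjusted p = 0.00792). Hapln1 averaged 0.674 ± 0.302 CPM in epithelium, and its treated level lay above both layers (adjusted p = 0.0399). Col1a1, Col1a2 and Col3a1 are also among the fibroblast and mesenchyme markers. The median log2 difference of treated intestine over mesenchyme was -1.62 for the procollagens, -0.996 for the fibrillin list and -0.24 for the hyalectan list, beside -0.94 for the tested members and -0.02 for all genes.

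The authors' deposited table, made with their own test, called 35 members higher and 3 lower in mesenchyme than in epithelium at its adjusted p under 0.05. All 35 and all 3 were called in the same direction here. Adamts16 and Adamtsl4 were higher in mesenchyme in the present fit alone, and their adjusted p by the authors' test was 0.0929 and 0.275. For treated intestine over mesenchyme the authors' deposited table called 1 member higher, Mmp20, and 16 lower. Of these, 13 were shared with the 18 called here. Adamts4, Adamts8 and Adamts19 were lower in the authors' deposited table alone, and Adamts2, Adamts3, Adamtsl3, Adamtsl4 and Mmp19 were lower in the present fit alone.

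The strand setting of the authors' counting is not given, so 9 of the 40 described members whose exons overlap a gene on the opposite strand are uncertain: Adamts4, Adamts7, Adamts8, Adamts9, Mmp11, Mmp19, Mmp24, Mmp28 and Timp3. Adamts10 and Adamtsl5 were counted under RefSeq identifiers of the noncoding transcript type, NR_037708 and NR_104340. Scaling mattered for the treated comparisons. Without scaling beyond the library total, the all-gene median was 0.40 in treated intestine over mesenchyme, with 1514 genes higher and 250 lower in place of 3258 and 3211, and 5 members were lower in place of 18. Over epithelium the median was 0.17, with 3673 genes higher and 981 lower in place of 5034 and 4677. None of the 18 changed sign under that or any other setting tried.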

How the data were processed

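RNA sequencing counts of 9 libraries from fetal mouse intestine, in 3 groups of 3, were analysed from the 2 deposited tables. Reads were aligned with TopHat2 2.0.13 to mm9, per the submitters' processing notes; how reads were counted, on which strand and with what annotation is not given in the sources used here. The counts were deposited by the authors as whole numbers per RefSeq identifier, with no normalization per the file headers, and 6 count columns were identical in both tables. The authors' deposited tables also hold group mean signal values (counts over size factors), fold changes as a ratio of these means, and an adjusted p-value; DESeq is named for this in the submitters' processing notes. Of these, the deposited p-value and fold change were used only to set the authors' calls beside those made here. In the symbol column 27 symbols had been turned into dates, and all 27 were named again.

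All 24016 identifiers entered 1 fit with edgeR 4.0.16 (limma 3.58.1, R 4.3.3), with 3 groups, TMM scaling, a filterByExpr minimum of 10 counts, the quasi-likelihood F test, two-sided, with Benjamini-Hochberg adjustment over the 15699 genes tested and a threshold of 0.05. Each SE was taken as the absolute log2 difference divided by the root of its F. For levels outside both layers, the larger p of the treated comparisons was adjusted over all genes. The fit was tested on simulated data with known changes. Apart from the changed genes, these data gave every library the same profile and every gene the same spread. They therefore do not cover a library like mesenchyme 1, with its large share of Rn45s. DESeq2 1.42.0 was an alternative, and tables and plots used Python 3.11.15, pandas 2.3.3, numpy 2.4.6 and matplotlib 3.10.9. Members with a mean of at least 1 CPM in any group were named, those of at least 10 CPM and those outside both layers with all 9 values, and of each pathway list up to 3 genes per comparison with the largest difference past the threshold. The members and lists were chosen with earlier results of these data known. Promoter windows came from RefSeq (GRCm38.p6). The alternatives were other scalings, filters, tools and thresholds, a block for the replicate number, the compared groups alone, removal of Rn45s, Lars2 and Mir6236, and each library left out in turn. The number of libraries, 3 a group, and the shallow mesenchyme 1 limit the precision.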

Additional observations from a re-analysis of the deposited data

How the results depend on the processing

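Over 19 alternative settings, 1995 of 2136 recomputed values for single members or lists stayed the same by the rule for their kind. A single member had to keep its direction and its side of the threshold. A count over a list or the members had to stay within a set fold of the main count. The members higher in mesenchyme than in epithelium numbered 36 to 40 and those lower 2 to 3, those higher in treated intestine than in epithelium 31 to 37, and those below both layers 0. The 18 members lower in treated intestine than in mesenchyme became 5 with no scaling beyond the library total, 10 at a threshold of 0.01, and 10 to 24 with 1 library left out. The 1 member higher became 2 with a filter of 1 CPM in 3 libraries or with only the groups compared, and 1 to 2 with 1 library left out. The 2 members lower than in epithelium became 1 with no scaling or at 0.01, and 1 to 2 with 1 library left out. The 1 member above both layers became 0 with no scaling, no filter, the replicate block or a threshold of 0.01, and 0 to 2 with 1 library left out. Same-numbered libraries had correlated deviations of -0.199 to 0.349, and libraries of different number of -0.275 to 0.185. For treated intestine and mesenchyme 1, 2 and 3 the same-numbered values were 0.291, 0.349 and 0.0802. These values do not settle whether the numbers mark pairs. The labels state no pairing, so the main fit took none. With the replicate block 18 members were lower than in mesenchyme and 33 higher than in epithelium. Sign changes concerned values that did not pass. With no scaling they were Mmp15 in mesenchyme over epithelium (log2 -0.33), Adamtsl4 in treated intestine over epithelium (0.15), and in treated intestine over mesenchyme Adamts1 (0.29), Adamts5 (0.15), Adamts15 (0.12), Adamts16 (0.23), Adamts17 (0.49), Adamtsl1 (0.45) and Timp2 (0.11). Adamts17 was 0.013 with no filter, 0.014 with the 1 CPM filter and 0.024 with only the groups compared; Adamtsl4 over epithelium was 0.040 with no filter, 0.0077 with the replicate block and 0.0078 with only the groups compared. With 1 library left out, Adamts1 ran from -0.30 to 0.012, Adamts16 from -0.76 to 0.81, Adamts17 from -0.28 to 0.22 and Adamtsl1 from -0.34 to 0.15 over mesenchyme. Likewise Adamtsl4 ran from -0.10 to 0.23 and Mmp9 from -0.17 to 0.56 over epithelium, and Mmp15 from -0.16 to 0.20 in mesenchyme over epithelium. The cause was not tested. Depth limits Mmp20 and the other members of few counts most.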
